A study of Glycine max with 12 samples.

Results

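Phenylalanine ammonia-lyase (PAL) genes were followed in RNA sequencing data from soybean (Glycine max) roots. The family was taken as 8 gene identifiers of the Williams 82 annotation that are listed as soybean PAL genes, out of 43517 identifiers in the count table. In order of mean level they are Glyma.10G058200.Wm82.a2.v1, Glyma.13G145000.Wm82.a2.v1, Glyma.19G182300.Wm82.a2.v1, Glyma.03G181700.Wm82.a2.v1, Glyma.20G180800.Wm82.a2.v1, Glyma.02G309300.Wm82.a2.v1, Glyma.10G209800.Wm82.a2.v1 and Glyma.03G181600.Wm82.a2.v1, written from here without the ending. Each identifier names its chromosome ahead of the G, and Glyma.03G181600 and Glyma.03G181700 carry consecutive identifiers on chromosome 3. Roots of W and OX3, as the labels call the 2 plant materials, were compared at 5 µM MnSO4, the control, and at 50 µM MnSO4, the manganese treatment, in 4 groups of 3 libraries. In the deposited tables the columns of W are headed WT and those of OX3 are headed OX, and no gene, promoter or line that sets the materials apart is given in the sources used here. Whether libraries of 1 group are separate plants is not said in the labels, and p-values therefore reflect the spread among these libraries alone, which may be technical.

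PAL removes ammonia from phenylalanine and releases cinnamic acid, the entry step of the phenylpropanoid pathway. Cinnamic acid is carried on by cinnamate 4-hydroxylase and 4-coumarate:CoA ligase to lignin, which stiffens xylem and seals the root endodermis, and to flavonoids. In soybean roots the flavonoid branch also leads to isoflavones, which signal to nodulating bacteria and are precursors of defence compounds. Plants carry PAL as a small gene family, so the level of each copy sets how much of the family's transcript pool it provides.

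The number of family members on each chromosome was set beside RefSeq's gene table for Glycine_max_v4.0. That table holds 8 PAL symbols on 6 chromosomes, and on each of the 6 the number of symbols equals the number of identifiers, with 2 on chromosome 3, 2 on chromosome 10 and 1 each on chromosomes 2, 13, 19 and 20. Equal numbers do not show that each identifier is a PAL gene. The table pairs no symbol with these identifiers, since 0 of 43517 matched, so each copy is given by its identifier and no copy by its symbol. For the same reason the lists of later lignin and flavonoid enzymes, and the marker lists of root endodermis, nodule and leaf, had no member, and the labelled tissue was not checked by markers. Reads shared between near-identical copies could have been divided by the authors' counting in ways the counts do not show.

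Total counts ranged from 15175866 to 19408318 per library. Within the W controls, replicate 2 stood apart, at -107.2 on the first principal component of all genes against -1.2 and 35.3 for replicates 3 and 4. The OX3 controls lay at -107.1, -88.9 and -53, and W at 50 µM at 55.8, 78 and 108.9. This component held 33.7% of the variance. Its Pearson's r with the log2 of the summed PAL level over the 12 libraries was -0.7, and the cause was not tested. Within OX3 at 50 µM, replicate 4 lay at -16.8 against 60.7 and 35.6 for replicates 2 and 3. Several results below rest on these or on other single libraries. Values of a group follow each other by replicate number.

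One copy, Glyma.10G058200, provided most of the family's transcript in every library. Levels of different copies were compared as the authors' FPKM, which divides the read count by gene length and by the library total. In the W controls Glyma.10G058200 stood at 233, 136 and 150 FPKM, and in W at 50 µM at 119, 111 and 86.3 FPKM. In the OX3 controls it stood at 255, 351 and 212 FPKM, and in OX3 at 50 µM at 55.4, 190 and 222 FPKM. The highest library, OX3 control replicate 3, was thus 6.34-fold above the lowest, OX3 replicate 2 at 50 µM. Its mean of 177 ± 83.2 FPKM (SD, n = 12 libraries) ranked 491st among 31841 genes tested. In bulk roots, fewer cells that express a gene and less of its RNA per cell cannot be told apart.

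Glyma.13G145000 was second, with a median of 34 FPKM over the 12 libraries and a range from 16.4 to 76. Glyma.19G182300 came next, with a median of 23.1 FPKM and a range from 12.4 to 51.6. This order of the 3 leading copies was the same in 12 of 12 libraries. Glyma.10G058200 lay 4.46-fold above Glyma.13G145000 on average, with a log2 ratio of 2.16 ± 0.606 (SD, n = 12), and Glyma.13G145000 lay 1.6-fold above Glyma.19G182300, with a log2 ratio of 0.68 ± 0.311 (SD, n = 12). Glyma.19G182300 in turn lay 8.11-fold above Glyma.03G181700, so that a wide step separated the leading copies from the others.

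The other 5 copies were low. Means over the 12 libraries were 3.13 ± 2.12 FPKM for Glyma.03G181700, 2.74 ± 1.95 for Glyma.20G180800 and 2.5 ± 1.23 for Glyma.02G309300 (SD, n = 12). These 3 copies could not be ordered beyond their spread, since Glyma.03G181700 exceeded Glyma.20G180800 in 7 of 12 libraries and Glyma.20G180800 exceeded Glyma.02G309300 in 6 of 12. Glyma.02G309300 exceeded Glyma.10G209800 in 12 of 12 libraries. Glyma.10G209800, at 0.881 ± 0.663 FPKM (SD, n = 12), exceeded Glyma.03G181600, at 0.772 ± 0.711 (SD, n = 12), in 8 of 12 libraries, so the last 2 were not separated either. The lowest copy, Glyma.03G181600, had between 2 and 97 reads per library, which limits what can be said of it. Its neighbour on chromosome 3, Glyma.03G181700, had between 62 and 344 reads and stood above it in every library, by between 1.87-fold and 36.6-fold, the latter in W control replicate 4, where Glyma.03G181600 had 2 reads.

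**Figure D1:**
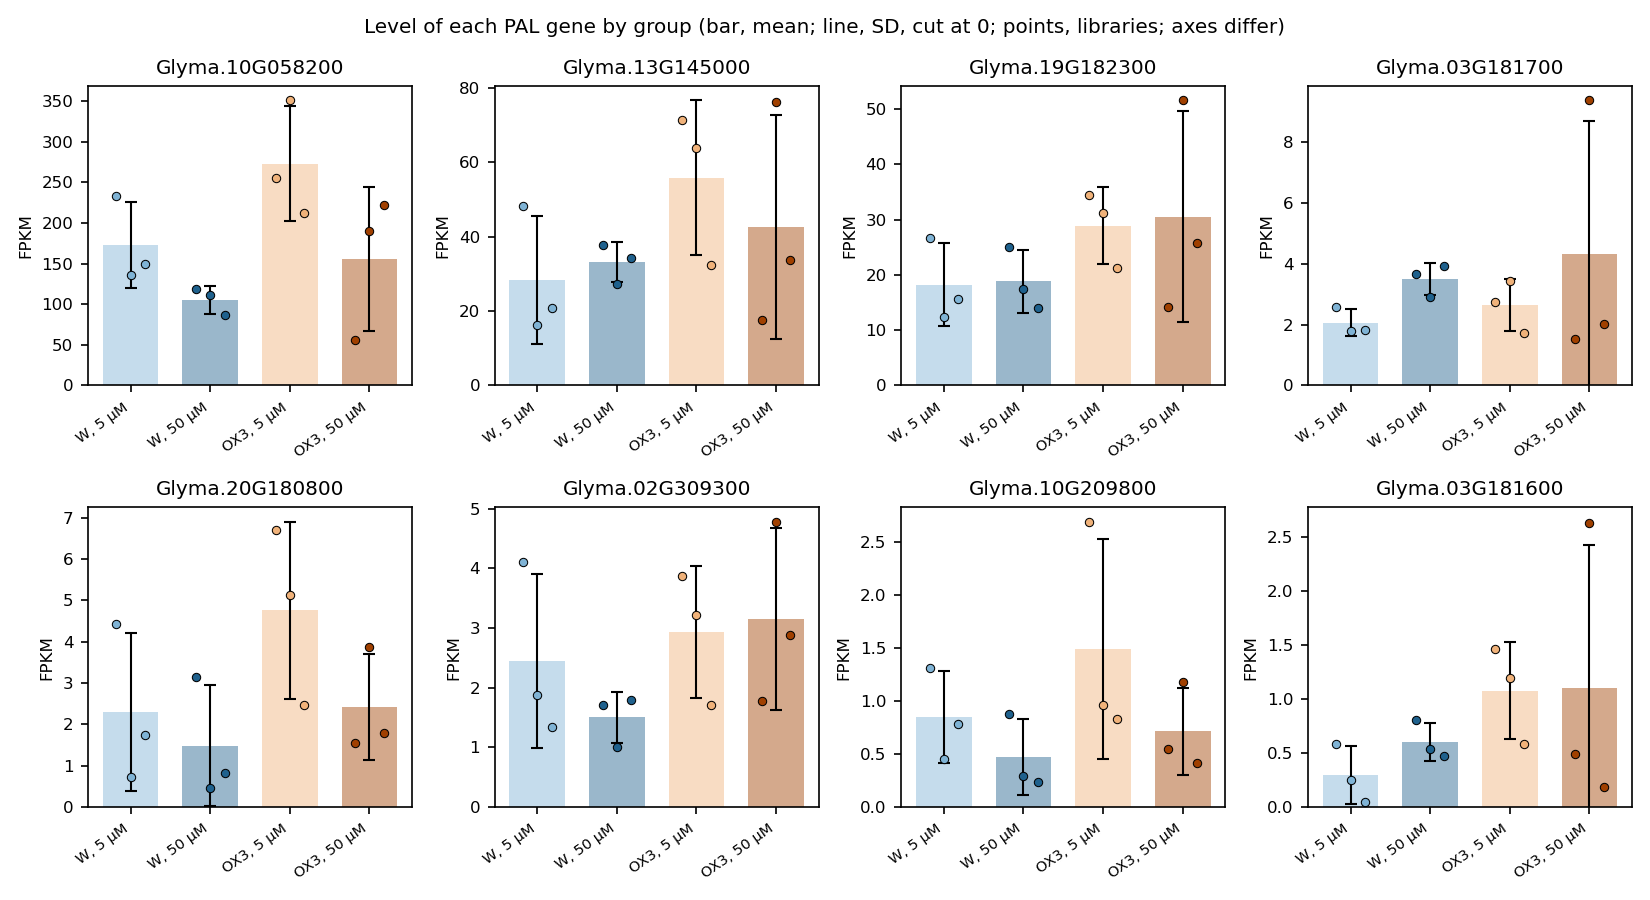
FPKM of the 8 PAL genes in the 4 groups, 1 panel per gene in order of mean level, with an axis of its own from 0; bars are means of 3 libraries, lines the SD (cut at 0) and points the libraries from the lowest to the highest replicate number. Glyma.10G058200 lies between 55.4 and 351 FPKM, and the highest value of any other copy is 76 FPKM, for Glyma.13G145000.

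As shares of the summed FPKM of the 8 copies, the 3 leading copies made up between 93.6% and 97.5% in each library. Glyma.10G058200 alone held 69.7% ± 8.45 (SD, n = 12), with Glyma.13G145000 at 16.2% ± 4.75 and Glyma.19G182300 at 10% ± 2.95 (SD, n = 12). Within W the shares of the 3 leading copies separated the manganese levels, and so did those of the low copies Glyma.03G181700 and Glyma.03G181600. Glyma.03G181700 held 0.803% to 1.06% in the W controls and 1.81% to 2.77% at 50 µM. Glyma.03G181600 held 0.0259% to 0.181% and 0.332% to 0.42%. The shares of the remaining copies overlapped. A share of the family has no counterpart over all genes, so no such rate is set beside these. The share of Glyma.10G058200 was 72.7%, 80% and 78.1% in the W controls and 61.9%, 69% and 60.8% at 50 µM, so the groups did not overlap, with or without W control replicate 2, the first value. The share of Glyma.13G145000 was 15%, 9.66% and 10.8% in the W controls and 19.7%, 16.9% and 24.2% at 50 µM, again without overlap, and that of Glyma.19G182300 went from 7.9% ± 0.539 to 11.3% ± 1.64 (SD, n = 3). The shares add up to a whole, so a lower share of the leading copy by itself makes the other shares higher. They carry no test here because they are scores over the members.

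In OX3 the shares of the leading copy overlapped between manganese levels. They were 67.4%, 76.3% and 77.7% in the controls and 59.5%, 55.9% and 76.8% at 50 µM. The value of 76.8% came from replicate 4, and the other OX3 libraries at 50 µM lay below all 3 controls. Replicate 4 stood apart on the first principal component, but not in the median level of the 8 copies. Their median log2 deviation from the group mean was -0.21 there, against -0.69 in replicate 2 and 0.80 in replicate 3. Single copies in replicate 4 did stand apart. Glyma.10G058200 was at 0.72, the highest of its group, and Glyma.03G181600 at -1.60, the lowest. The ratio of Glyma.10G058200 to Glyma.19G182300 showed the same libraries, at 7.41, 11.3 and 10 in the OX3 controls against 3.91, 3.68 and 8.6 at 50 µM, the last again from replicate 4. In W this ratio was 8.77, 11 and 9.6 in the controls and 4.74, 6.37 and 6.15 at 50 µM.

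**Figure D2:**
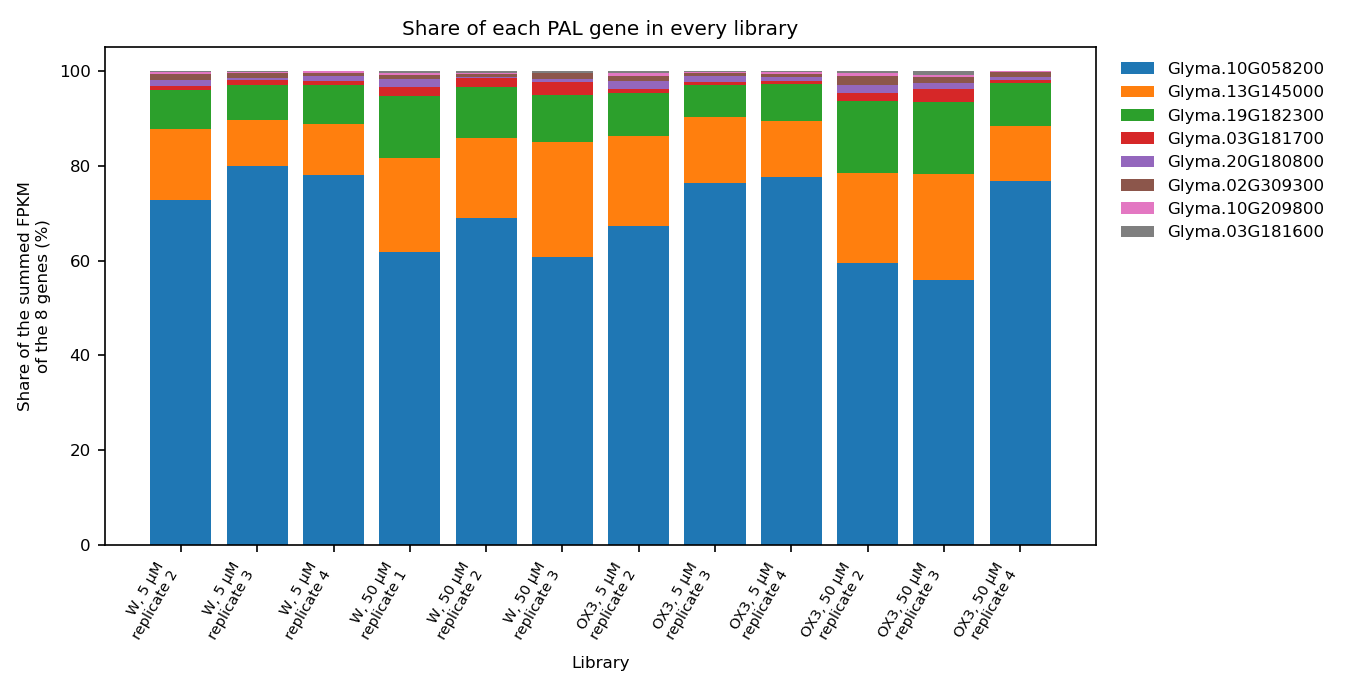
Share of each PAL gene in the summed FPKM of the 8 genes (percent, vertical axis) in each of the 12 libraries (horizontal axis). Glyma.10G058200 takes between 60.8% and 69% in W at 50 µM and between 72.7% and 80% in the W controls.

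The response to 50 µM MnSO4 in W was tested gene by gene on the read counts. With edgeR's quasi-likelihood test, 0 of the 8 copies had an adjusted p under 0.05, where 0.00314% of all genes tested were called, and 0 of 8 had an unadjusted p under 0.05, where 18.6% of all genes did. DESeq2 called 0 of the 8 and 5.01% of all genes. The copies had no common direction, since 4 had positive and 4 had negative log2 fold changes, with a median of -0.10 against -0.02 for all genes. Levels within a gene are given below as CPM, the read count relative to the TMM-scaled library total.

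The most abundant copy was lower in W at 50 µM, at 320, 323 and 261 CPM, than in the W controls, at 500, 410 and 421 CPM. The groups did not overlap, as for 13% of all genes in that direction, and the log2 fold change of Glyma.10G058200 was -0.56 (SE 0.42, 95% interval -1.48 to 0.36; edgeR adjusted p = 0.489). Glyma.03G181700 was higher at 50 µM, at 9.16, 7.91 and 11.1 CPM against 5.15, 5.06 and 4.76 CPM in the controls. Its log2 fold change was 0.91 (SE 0.53, 95% interval -0.25 to 2.07; edgeR adjusted p = 0.372). This SE draws on the spread in all 4 groups. With the W groups fitted alone the SE was 0.25 (edgeR adjusted p = 0.193), and without OX3 replicate 3 at 50 µM it was 0.27 (edgeR adjusted p = 0.179). The log2 fold change stayed at 0.91 in both fits. In each, 1 of 8 copies had an unadjusted p under 0.05 in edgeR, as did 5044 of 29687 and 5899 of 32576 genes. Glyma.03G181600 was also higher without overlap, at 2.03, 1.45 and 1.33 CPM against 1.16, 0.713 and 0.131 CPM, and its log2 fold change was 1.22 (SE 0.86; edgeR adjusted p = 0.457). Both copies on chromosome 3 were therefore among the genes not overlapping upward, as 11.3% of all genes were. The remaining 5 copies overlapped between the groups, with log2 fold changes from -0.69 for Glyma.10G209800 to 0.43 for Glyma.13G145000. Single libraries moved these values. Without W control replicate 2, which was above its group mean in 8 of 8 copies, the log2 fold change was -0.47 for Glyma.10G058200, 1.92 for Glyma.03G181600, 0.81 for Glyma.13G145000 and -0.13 for Glyma.02G309300 (-0.49 with it), and it turned from -0.42 to 0.23 for Glyma.20G180800. Without W control replicate 4, with its 2 reads of Glyma.03G181600, that copy was at 0.76. Without W replicate 1 at 50 µM, Glyma.10G209800 was at -1.44 and Glyma.20G180800 at -1.52. With the replicate number as a block they were at -1.64 and -1.73, where that library had a term of its own and so did not enter the comparison. In each of these last 2 fits 2 of 8 copies had an unadjusted p under 0.05 in edgeR and 0 an adjusted one. Of all genes, 5704 of 32366 without W replicate 1 at 50 µM and 5925 of 31841 with the block had such an unadjusted p.

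In OX3 the same treatment gave 0 of 8 copies past the threshold in edgeR's test, against 0% of all genes, and 0 of 8 at an unadjusted p under 0.05, against 15% of all genes. DESeq2 called 0 of the 8 and 3.39% of all genes. No copy separated the groups in either direction, as 9.39% of all genes did upward and 11.7% downward. Glyma.10G058200 stood at 532, 834 and 532 CPM in the OX3 controls and at 157, 464 and 572 CPM at 50 µM. Replicates 2 and 3 at 50 µM lay below all 3 controls and replicate 4 did not. The log2 fold change was -0.67 (SE 0.42, 95% interval -1.59 to 0.25; edgeR adjusted p = 0.466), and it was -1.03 without replicate 4 and -0.29 without replicate 2, which was the lowest. Glyma.03G181700 stood at 5.34, 7.62 and 4.03 CPM in the OX3 controls and at 4.04, 21.3 and 4.86 CPM at 50 µM, so a single library, replicate 3, carried its log2 fold change of 0.83 (SE 0.53), which became -0.34 without that library. Replicate 3 was likewise the highest of its group for Glyma.19G182300, at 118 CPM against 37.5 and 62.3, and for Glyma.13G145000, at 184 CPM against 49.4 and 86.2. Without it all 8 copies had negative log2 fold changes, where 4 did with it, and Glyma.03G181600 went from 0.17 to -1.39.

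**Figure D3:**
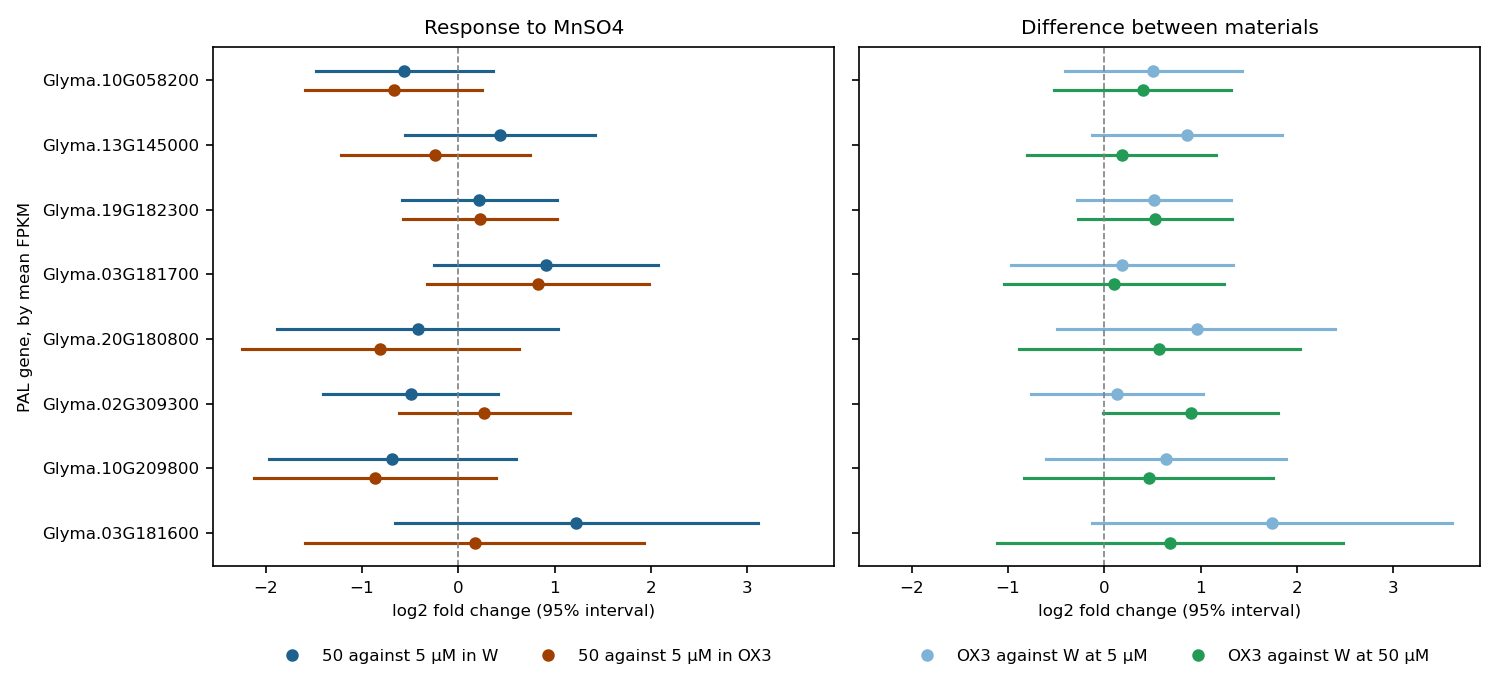
Log2 fold changes (horizontal axis) of the 8 PAL genes with 95% intervals from edgeR's fit, for 50 against 5 µM MnSO4 in W and OX3 (left) and for OX3 against W at 5 and 50 µM (right); genes are ordered by mean FPKM. Every interval crosses 0, and the points on the right all lie above 0.

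Whether a copy responded differently in the materials was tested as an interaction. None of the 8 passed the threshold, against 0.00314% of all genes tested in edgeR's test, and 0 of 8 had an unadjusted p under 0.05, against 7.55%. DESeq2 called 0 of the 8 and 0.21% of all genes. The largest differences among the 8 copies, response in OX3 minus response in W, were -1.06 on the log2 scale (SE 1.17) for Glyma.03G181600 and 0.77 (SE 0.58) for Glyma.02G309300. Both kept their sign in every alternative fit, but their size moved with single libraries. Without OX3 replicate 3 at 50 µM the differences were -2.62 for Glyma.03G181600, -1.32 for Glyma.13G145000 (-0.68 with it), -1.25 for Glyma.03G181700 (-0.08 with it) and 0.40 for Glyma.02G309300, and 3 of 8 copies had an unadjusted p under 0.05 in edgeR, none an adjusted one. Of all genes, 2868 of 32576 had such an unadjusted p in that fit. Without W control replicate 2 the differences were -1.76 for Glyma.03G181600 and -1.04 for Glyma.20G180800 (-0.39 with it). Glyma.02G309300 stood at 8.06, 5.2 and 3.46 CPM in the W controls and 4.23, 2.68 and 4.98 CPM in W at 50 µM, and at 7.41, 7 and 3.92 and then 4.63, 10.7 and 6.81 CPM in OX3. The groups of this copy overlapped in both materials. For the leading copy the difference was -0.11 (SE 0.59, 95% interval -1.41 to 1.18), an interval that holds ratios of the responses from 0.377 to 2.27.

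Averaged over both materials, Glyma.03G181700 had the lowest p of the 8 copies, a log2 fold change of 0.87 (SE 0.37, 95% interval 0.05 to 1.69) with an unadjusted p of 0.039 in edgeR. After adjustment p was 0.177 (edgeR), so it was not called. Without OX3 replicate 3 at 50 µM its log2 fold change was 0.28. The leading copy had a log2 fold change of -0.61 (SE 0.3, 95% interval -1.26 to 0.04; edgeR adjusted p = 0.223). It was lower at 50 µM in W without overlap and lower in 2 of 3 OX3 libraries at 50 µM than in any OX3 control. In all, 0 of 8 copies passed the threshold, against 2.32% of all genes, and 1 of 8 had an unadjusted p under 0.05, against 24.9% of all genes. DESeq2 called 0 of the 8 and 12.2% of all genes. The count over all genes was itself unstable, so little can be read from setting 0 of 8 beside it. It was 740 genes in edgeR, 0 with the replicate block, 1842 when W control replicate 4 was left out, 1721 when OX3 control replicate 4 was, 1806 when OX3 replicate 4 at 50 µM was, and between 0 and 3 without any other single library, W control replicate 2 among them. Copies at an unadjusted p under 0.05 numbered between 0 and 3 in the fits with libraries left out. Genes at such a p numbered between 6248 of 32684 and 8716 of 32211 in those fits. The median over the 8 copies was -0.01, against -0.04 for all genes.

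Between the materials, all 8 copies had positive log2 fold changes in OX3 against W at 5 µM, and none passed the threshold. In edgeR's test 0 of 8 were called, against 0.0126% of all genes, and 0 of 8 had an unadjusted p under 0.05, against 10.2%, while DESeq2 called 0 of 8 and 0.671% of all genes. The log2 fold changes ran from 0.13 for Glyma.02G309300 to 1.74 for Glyma.03G181600, with a median of 0.58 against 0.05 for all genes, 46.1% of which had negative values. The leading copy, at 532, 834 and 532 CPM in the OX3 controls and 500, 410 and 421 CPM in the W controls, did not overlap, with a log2 fold change of 0.51 (SE 0.42, 95% interval -0.41 to 1.43; edgeR adjusted p = 0.652). Glyma.03G181600 did not overlap either, at 2.86, 2.65 and 1.38 CPM in OX3 and 1.16, 0.713 and 0.131 CPM in W, with a log2 fold change of 1.74 (SE 0.86; edgeR adjusted p = 0.5). Of all genes 7.26% did not overlap upward and 6.02% downward, where 2 and 0 of the copies did so. Glyma.13G145000 stood at 148, 150 and 80.2 CPM in OX3 and 102, 48.9 and 57.6 CPM in W, where only W control replicate 2 lay above an OX3 library. Its log2 fold change was 0.86 (SE 0.45; edgeR adjusted p = 0.52), and it was 1.23 without W control replicate 2. Without that library Glyma.03G181600 was at 2.42 and Glyma.20G180800 at 1.60 (0.96 with it), 2 of 8 copies had an unadjusted p under 0.05 in edgeR, and 100 genes in place of 4 were called, none of them a copy. Of all genes, 6720 of 32266 had an unadjusted p under 0.05 in that fit.

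At 50 µM the 8 values for OX3 against W were again positive, and again none was called. In edgeR's test 0 of 8 passed, against 0.0157% of all genes, and 0 of 8 had an unadjusted p under 0.05, against 8.76%, while DESeq2 called 0 of 8 and 0.732% of all genes. The range ran from 0.10 for Glyma.03G181700 to 0.90 for Glyma.02G309300, for which the 95% interval was -0.01 to 1.80 (edgeR adjusted p = 0.573), with a median of 0.50 against 0.02 for all genes. All 8 copies overlapped between the materials, where 9.47% of all genes did not overlap upward and 7.41% downward. This comparison moved with single libraries in both directions. Without OX3 replicate 3 at 50 µM only 3 of the 8 values were positive. Without OX3 replicate 2 at 50 µM all 8 were, with Glyma.10G058200 at 0.78 (0.40 with it), and 3 of 8 had an unadjusted p under 0.05 in edgeR. With the replicate block, in which W replicate 1 at 50 µM does not enter, 3 of 8 did, with Glyma.20G180800 at 1.86 (0.57 without the block) and Glyma.10G209800 at 1.42 (0.46 without it). Of all genes, 2553 of 32684 without OX3 replicate 2 at 50 µM and 3942 of 31841 with the block had such an unadjusted p. In none of these fits did a copy pass after adjustment. In limma-voom 5 were positive, and with log2 FPKM 7, Glyma.03G181700 then being negative. At 5 µM the 8 values stayed positive in DESeq2, limma-voom and on log2 FPKM, and 7 were positive without W control replicate 4 or without OX3 control replicate 2 or 3.

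Over both treatments the log2 fold changes of OX3 against W ran from 0.14 for Glyma.03G181700 to 1.21 for Glyma.03G181600. For the leading copy the value was 0.46 (SE 0.3, 95% interval -0.19 to 1.10; edgeR adjusted p = 0.545). None of the 8 was called, against 0.148% of all genes, none had an unadjusted p under 0.05, against 11.6%, and DESeq2 called 0 of 8 and 1.7% of all genes. Copies at an unadjusted p under 0.05 rose to 4 of 8 without OX3 replicate 2 at 50 µM, and to 3 of 8 without W control replicate 2, without W replicate 1 at 50 µM or with the replicate block, and 0 of 8 passed after adjustment in edgeR in each. Genes at such an unadjusted p numbered 3622 of 32684, 6757 of 32266, 4425 of 32366 and 4836 of 31841 in these fits, in that order. With all libraries and no block they numbered 3683 of 31841. Of all genes 47 were called, 11 with the block, and between 20 and 579 without single libraries, the highest without W control replicate 2. Summed over the copies, the family stood at 577 ± 94.7 CPM in the W controls, 467 ± 44.1 CPM in W at 50 µM, 851 ± 211 CPM in the OX3 controls and 606 ± 302 CPM in OX3 at 50 µM (SD, n = 3 each). The OX3 libraries at 50 µM, with family sums of 261, 818 and 740 CPM, covered the range of all W libraries, from 425 to 685 CPM.

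The copies tended to be high or low together in the same library, within a group. In W control replicate 2 and in OX3 replicate 3 at 50 µM, 8 of 8 copies lay above the mean of their group in log2 CPM. In OX3 control replicate 4 and OX3 replicate 2 at 50 µM, 8 of 8 lay below it. Over all tested genes between 48% and 52.3% lay above the group mean in each library. That share does not show how often any 8 genes lie on the same side together. Such a rate was not computed, so this does not set the copies apart from other genes. In OX3 replicate 3 at 50 µM the copies lay 0.80 above the group mean in the median, from 0.42 for Glyma.10G058200 to 1.85 for Glyma.03G181600. In OX3 replicate 2 at 50 µM they lay at -0.69 in the median. These libraries differed in TMM factor as well, 1.064 for replicate 3 and 0.919 for replicate 2, and the part of scaling or RNA quality in this was not tested.

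**Figure D4:**
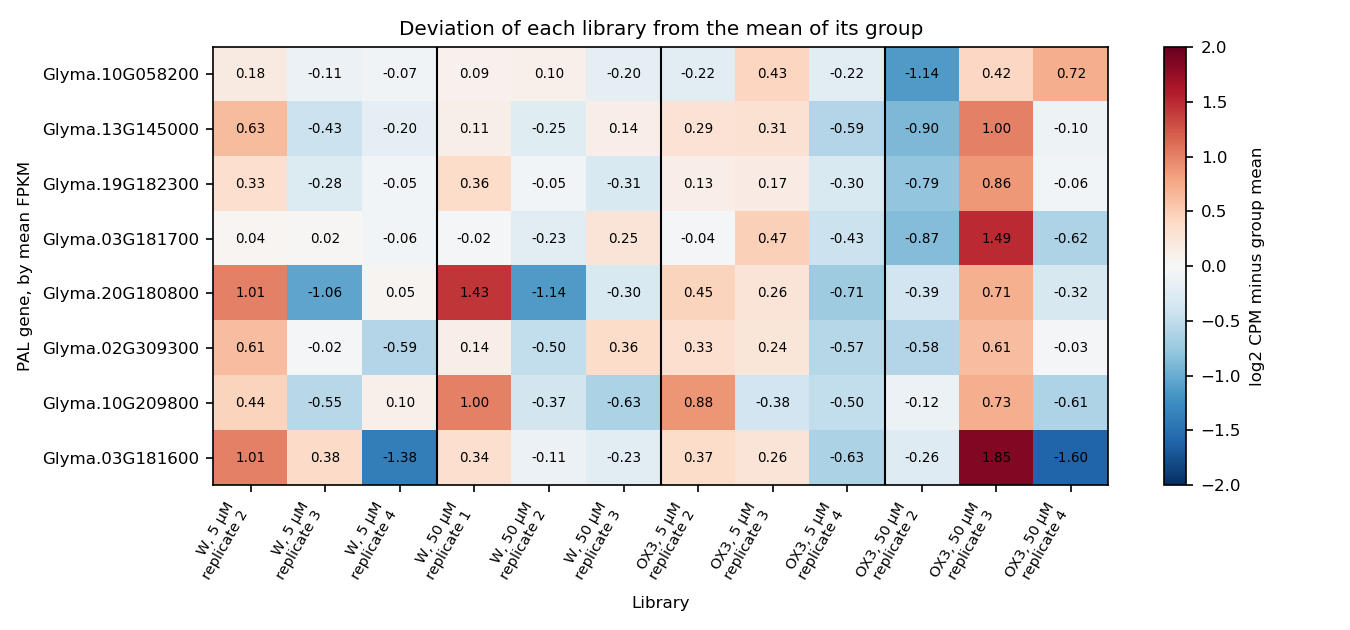
Deviation of log2 CPM from the group mean (colour and printed value) for the 8 PAL genes (rows, by mean FPKM) in the 12 libraries (columns, black lines between groups). OX3 replicate 3 at 50 µM is above its group mean for all 8 genes and OX3 replicate 2 below it for all 8.

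As a description over the 12 libraries, which share their groups and scaling, deviations from the group mean correlated between copies with Pearson's r from 0.02 to 0.90 and a median of 0.64 over the 28 pairs. In 19 of 28 pairs r was above 0.5. The share among pairs of all genes was not computed, so the count does not set the copies apart from other genes. The highest was 0.90 between Glyma.19G182300 and Glyma.13G145000, neighbours in the order of levels. Glyma.10G209800 and Glyma.20G180800, both low, had an r of 0.83, with FPKM levels whose ratio stayed between 0.187 and 0.635 in all 12 libraries. The lowest values were those of the leading copy with Glyma.10G209800, at 0.02, and with Glyma.03G181600, at 0.08. Removal of group means leaves fewer independent values than libraries, and pairs of copies are not independent of each other.

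The spread between replicates differed among copies. The biological coefficient of variation estimated by edgeR was 33.2% for Glyma.19G182300, 36.4% for Glyma.10G058200 and for Glyma.02G309300, and 39.7% for Glyma.13G145000. It was 45.5% for Glyma.03G181700, 49% for Glyma.10G209800, 55.9% for Glyma.20G180800 and 67.9% for Glyma.03G181600. All 8 lay above the median of 32.8% over the genes tested, and the 3 copies with the fewest reads in their lowest library, Glyma.03G181600, Glyma.10G209800 and Glyma.20G180800, had the largest values.

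The 5 genes outside the family whose log2 CPM followed the summed PAL level most closely over the 12 libraries had Pearson's r between 0.883 and 0.892, among 31833 genes compared. They were Glyma.07G142700, Glyma.09G218400, Glyma.15G096400, Glyma.13G166900 and Glyma.15G253200. Only Glyma.15G253200, at 12.5 FPKM on average, and Glyma.15G096400, at 3.93 FPKM, had means above 1 FPKM. The lowest value of Glyma.07G142700 and of Glyma.13G166900 was 0 FPKM. Being the highest of 31833 values over 12 libraries, these r carry no test and show no link to PAL. Among the copies themselves, Glyma.10G058200, which makes up most of the sum, had r = 0.964, followed by Glyma.13G145000 at 0.723 and Glyma.19G182300 at 0.702, and Glyma.03G181700 was lowest at 0.219.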

How the data were processed

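For 12 root libraries the authors deposited FPKM and, separately, read counts. HTSeq 0.6.0, HISAT2 2.1.0, Bowtie2 2.2.3, TopHat2 and CASAVA appear in the submitters' processing notes, with no role given, and neither strand use nor the handling of multiply mapped reads is stated. For the 8 copies, each deposited FPKM value equalled the count divided by column total and by a fixed length of 2385 to 3209 bp. The members and lists were chosen with earlier results of these data known.

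The count test was edgeR 4.0.16 (R 4.3.3), with filterByExpr by group (31841 genes kept, all 8 copies among them), TMM scaling (factors 0.859 to 1.247), 1 coefficient per group over all 12 libraries, two-sided quasi-likelihood F tests, p-values adjusted by Benjamini-Hochberg across the 31841 genes, and 0.05 as the threshold. The SE is the log2 fold change over the square root of F. The 95% intervals use the fit's degrees of freedom. Log2 CPM used a prior count of 2. All 8 copies are named, with the 5 genes most correlated with their sum. Alternatives used DESeq2 1.42.0 and limma 3.58.1, with log2(FPKM + 1) and log2(FPKM + 0.1). The edgeR, DESeq2 and limma-voom fits were checked on data with known changes. For OX3 against W at 5 µM, where log2(FPKM + 0.1) moved it most, the median log2 fold change of all genes was 0.05 in edgeR, 0.15 with log2(FPKM + 1) and 0.22 with log2(FPKM + 0.1), fits that also differ in test and pseudocount.

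Replicate numbers have no stated meaning. W and OX3 controls with the same number deviated together from their group means (r across genes 0.26, 0.45 and 0.27), and were taken as pairs from the data alone. Between W and OX3 at 50 µM r was 0.16 and 0.30. Across manganese levels r was 0 and 0.27 within W, and -0.19, -0.02 and -0.08 within OX3. A pairing across manganese levels was thus not seen in OX3 and in 1 number only in W, though the block was applied there too. The block has a term for replicate 1, a number found only in W at 50 µM, so that library does not inform the blocked comparisons. The planned lists of pathway enzymes and cell markers had no member because no identifier matched.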

Additional observations from a re-analysis of the deposited data

How the results depend on the processing

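The count of PAL copies past the threshold was 0 in every comparison under each alternative run for it: DESeq2, its size factors in edgeR, no filter on low counts, the groups of the comparison alone, limma-voom, log2 FPKM, the replicate number as a block, any 1 library left out (0 to 0 copies), and W control replicate 2 and OX3 replicate 4 at 50 µM left out together, an alternative chosen after seeing the data. The groups of the comparison alone were not fitted for the interaction or for the averages over both materials or both treatments. The replicate block therefore changed no call of a copy after adjustment, but copies at an unadjusted p under 0.05 in edgeR numbered 2 with manganese in W, 2 over both materials, 1 in OX3 against W at 5 µM, 3 at 50 µM and 3 over both treatments under it, against 0, 1, 0, 0 and 0 without it. Of all 31841 genes, 5925, 7812, 3258, 3942 and 4836 had such a p under it, against 5931, 7943, 3259, 2789 and 3683 without it. Counts over all genes without libraries ran from 0 to 9 with manganese in W, 0 to 169 in OX3, 0 to 1842 over both materials, 0 to 100 in OX3 against W at 5 µM, 0 to 6 at 50 µM and 20 to 579 over both treatments. Of 1152 log2 fold changes recomputed for single copies, 0 passed the threshold and 66 changed sign, and the cause was not tested. The order of the copies kept between 6 and 8 of its 8 places without single libraries, and 6 without OX3 control replicate 2 or OX3 replicate 3 at 50 µM. Precision is limited by 3 libraries a group and, for Glyma.03G181600, by as few as 2 reads.

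With the replicate block, log2 fold changes that changed sign were -0.08 for Glyma.19G182300 with manganese in W, -0.30 for Glyma.03G181600 in OX3, -0.05 for Glyma.13G145000 over both materials, and, in the interaction, 0.87 for Glyma.10G209800 and 0.97 for Glyma.20G180800. In limma-voom they were -0.56 for Glyma.03G181600 with manganese in OX3 and -0.13 for Glyma.19G182300 in the interaction. For OX3 against W, limma-voom gave -0.10 for Glyma.03G181600, -0.32 for Glyma.03G181700 and -0.02 for Glyma.13G145000 at 50 µM, and -0.09 for Glyma.03G181700 over both treatments. With log2(FPKM + 1) they were -0.08 for Glyma.19G182300 and -0.14 for Glyma.03G181600 with manganese in OX3, -0.10 for Glyma.13G145000 over both materials, -0.16 for Glyma.19G182300 in the interaction and -0.06 for Glyma.03G181700 in OX3 against W at 50 µM. With log2(FPKM + 0.1) the same 5 were -0.09, -0.53, -0.10, -0.17 and -0.16, and Glyma.19G182300 was at 0 over both materials.

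Without single libraries, or without the pair named above, the following ranges crossed 0. With manganese in W, Glyma.20G180800 ran from -1.52 to 0.23. With manganese in OX3, Glyma.03G181600 ran from -1.39 to 0.67, Glyma.13G145000 from -0.89 to 0.10, Glyma.19G182300 from -0.31 to 0.54, Glyma.03G181700 from -0.34 to 1.21 and Glyma.02G309300 from -0.09 to 0.52. Over both materials, Glyma.02G309300 ran from -0.29 to 0.10, Glyma.13G145000 from -0.23 to 0.35, Glyma.19G182300 from -0.05 to 0.38 and Glyma.03G181600 from -0.08 to 1.29. In the interaction, Glyma.19G182300 ran from -0.53 to 0.32, Glyma.10G209800 from -0.66 to 0.58, Glyma.20G180800 from -1.04 to 0.72, Glyma.03G181700 from -1.25 to 0.30 and Glyma.10G058200 from -0.57 to 0.27. In OX3 against W at 5 µM, Glyma.02G309300 ran from -0.12 to 0.48 and Glyma.03G181700 from -0.09 to 0.37. At 50 µM, Glyma.03G181700 ran from -1.07 to 0.48, Glyma.19G182300 from -0.01 to 0.85, Glyma.03G181600 from -0.88 to 1.17, Glyma.13G145000 from -0.47 to 0.52 and Glyma.10G209800 from -0.02 to 1.22. Over both treatments, Glyma.03G181700 ran from -0.45 to 0.33.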
